A study of Mus musculus with 8 samples.

Results

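Transcripts of the retinoblastoma pocket proteins (Rb1, Rbl1, Rbl2), of the MuvB subunits Lin9, Lin37, Lin52 and Lin54, and of the transcription factors Mybl1, Mybl2 and Foxm1 were examined in cultured mouse satellite cells, the resident stem cells of muscle fibres. The members were chosen by gene symbol from the table of exon counts, which gave 10 rows of 39017. All 10 passed the filter on low counts, as did 15816 genes in all. The cells came from diaphragm and abdominal muscle of adult Pax3GFP/+ mice, which carry a green fluorescent protein reporter at an allele of Pax3, so every library shares that allele. They were plated at 7500 cells per 35 mm dish and cultured for 4 days with 10 µM sal003, a small molecule that keeps the translation factor eIF2α phosphorylated (4 libraries, Sal003), or with its vehicle DMSO (4 libraries). Nothing in the labels says that replicates are separate animals or cultures, so a p-value here reflects the spread among these libraries alone, which may be technical.

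The pocket proteins bind E2F transcription factors and hold cell cycle genes silent until cyclin-dependent kinases phosphorylate them. Rb1 encodes pRB, which restrains the activating E2Fs and is known in myoblasts for the lasting exit from the cell cycle at differentiation. p107 (Rbl1) and p130 (Rbl2) bind the repressive E2Fs and join the MuvB core to form the DREAM complex, which silences both G1/S and G2/M genes in resting cells. When cells re-enter the cycle the MuvB core leaves the pocket protein, binds B-MYB (Mybl2) and later FOXM1, and then activates the genes of mitosis.

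Total counts ranged from 32753929 to 40234107 per library. DMSO replicate 2 stood apart: it had counts for 14437 genes against 16561 to 18076 in the other libraries, and its Spearman correlation with the other DMSO libraries was at most 0.949, against at least 0.977 among those. The members' results are therefore also given without it. Myogenic markers identified the cells, with Myod1 at 832 to 946 CPM (counts scaled to a common library size by the trimmed mean of M values) in Sal003 and 827 to 1020 CPM in DMSO. The 8 myogenic markers summed to 3314 to 3643 CPM in Sal003 and 6600 to 7708 CPM in DMSO. Myog and Des accounted for most of this gap. All 8 were tested, and 1 was higher and 4 were lower in Sal003 (edgeR). Pax7 went against the sum, at 94.97 to 100.8 CPM in Sal003 and 65.2 to 80.6 CPM in DMSO, without overlap. Pax3 and Myf5 overlapped between the groups. The 6 immune markers summed to 2.16 to 4.56 CPM in Sal003 and 2.36 to 5.82 CPM in DMSO, with Cd68 counted in every library and Ptprc, Adgre1 and Cd3e at 0. The 6 endothelial markers summed to 2.75 to 6.04 CPM in Sal003 and 0.89 to 4.29 CPM in DMSO, with Pecam1 counted in every library and Emcn and Cldn5 at 0. The 6 fibro-adipogenic markers summed to 1.054 to 2.46 CPM in Sal003 and 0.831 to 4.18 CPM in DMSO, with Pdgfra counted in every library and Dcn and Lum at 0. Of these 18 genes 6 were tested and 0 passed (edgeR). The 6 markers of smooth muscle and pericytes summed to 198 to 222 CPM in Sal003 and 329 to 416 CPM in DMSO; of these, Myh11, Rgs5 and Kcnj8 reached at most 2.25 CPM in any library and 3 of the 4 tested fell. The part of these marker differences in the results on the members was not tested. In bulk RNA, fewer cells of a type and less RNA per cell cannot be told apart.

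The transcription start regions of members that moved and of members that did not are shown because E2F and MuvB act at such sites and Rbl1 and Mybl2 are themselves known E2F targets. RefSeq start regions of build GRCm38.p6 (250 bases before to 50 after the start) were found for 6 of the 10 members: Rbl1, Rbl2, Lin37, Lin52, Lin54 and Mybl2. They were searched on both strands for E2F words (TTCCCGC and TTGGCGC and TTCGCGC and TTGCCGC, each also with G as its last base) and for the cell cycle homology region that LIN54 binds (TTTGAA or TTCGAA). Each stretch below has 150 bases, read 5′ to 3′ on the strand of the gene, and capitals mark these words. The stretches of Rbl1 (chr2:157204535-157204684, minus strand), Mybl2 (chr2:163054485-163054634, plus strand), Lin52 (chr12:84451358-84451507, plus strand) and Rbl2 (chr8:91069907-91070056, plus strand) end at the base before the start, and that of Lin54 (chr5:100498624-100498773, minus strand) ends 51 bases before it.
Rbl1: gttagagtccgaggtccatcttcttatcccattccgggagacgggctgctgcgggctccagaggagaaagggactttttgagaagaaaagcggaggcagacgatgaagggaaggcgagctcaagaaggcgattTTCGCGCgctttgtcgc
Mybl2: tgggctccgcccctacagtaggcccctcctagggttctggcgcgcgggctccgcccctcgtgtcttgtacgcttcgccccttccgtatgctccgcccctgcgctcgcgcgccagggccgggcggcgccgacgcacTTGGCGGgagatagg
Lin54: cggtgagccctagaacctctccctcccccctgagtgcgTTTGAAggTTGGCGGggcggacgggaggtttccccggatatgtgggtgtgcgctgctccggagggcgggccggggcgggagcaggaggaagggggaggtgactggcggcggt
Lin52: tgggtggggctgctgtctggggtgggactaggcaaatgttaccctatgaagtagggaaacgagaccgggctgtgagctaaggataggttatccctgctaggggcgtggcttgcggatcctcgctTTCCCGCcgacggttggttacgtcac
Rbl2: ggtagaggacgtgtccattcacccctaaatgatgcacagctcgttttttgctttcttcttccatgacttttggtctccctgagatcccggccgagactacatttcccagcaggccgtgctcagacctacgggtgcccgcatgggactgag

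Bases were counted from the RefSeq start, -1 being the last base before it. The E2F word lay at -17 to -11 in Rbl1, -15 to -9 in Mybl2 and -26 to -20 in Lin52. For Mybl2, Lin52 and Lin37 the RefSeq start differs from the annotated start of the gene. In Lin52 the annotated start, at base 84451422, lies within the stretch shown, so the E2F word lies inside the annotated gene. In Lin54 a TTTGAA word at -162 to -157 and an E2F word at -154 to -148 lay side by side, at 1 of its 2 listed start sites. A stretch ending at the base before the start, as for the other members, would hold neither word whole. The window of the other Lin54 site, which is the one at the annotated start of the gene, held no E2F word. The Rbl2 window held no E2F word, and that of Lin37 had it after the start, at bases 17 to 23 on the opposite strand. A TTTGAA word also lay at -201 to -196 in Rbl2, on the opposite strand, and at -197 to -192 in Lin37. Lin54 held further words of this kind after its start sites, TTCGAA at 30 to 35 on the opposite strand of the site shown and TTTGAA at 41 to 46 of the other site. Of all 32851 RefSeq start regions of this length, 17.8% held an E2F word and 19.2% a TTTGAA or TTCGAA word. A match of letters is a description and not evidence of binding, and Lin52, which has such a word, did not pass the test described next.

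The comparison of Sal003 with DMSO asks which of these transcripts differ between satellite cells kept with the inhibitor and with its vehicle. Of the 10 members 6 rose in Sal003 (Mybl2, Lin9, Rbl1, Lin54, Foxm1 and Mybl1), 1 fell (Rb1), and 3 did not pass the test (Rbl2, Lin37 and Lin52). The test was edgeR's quasi-likelihood test with Benjamini-Hochberg adjustment over all tested genes and a threshold of 0.05, which called 10.6% of all tested genes higher and 12.2% lower. The Sal003 and DMSO libraries did not overlap at the same 7 members, while 26.8% of all tested genes were without overlap, 13.1% toward higher and 13.7% toward lower values. Without DMSO replicate 2 the members again counted 6 higher and 1 lower, when edgeR called 13.4% of all tested genes higher and 13.6% lower. Its log2 fold changes were then 1.43 for Mybl2, 1.12 for Lin9, 0.97 for Rbl1, 0.84 for Foxm1, 0.71 for Lin54, 0.65 for Mybl1 and -1.39 for Rb1. The median log2 fold change of the members was 0.72 and that of all tested genes was -0.0034.

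**Figure D1:**
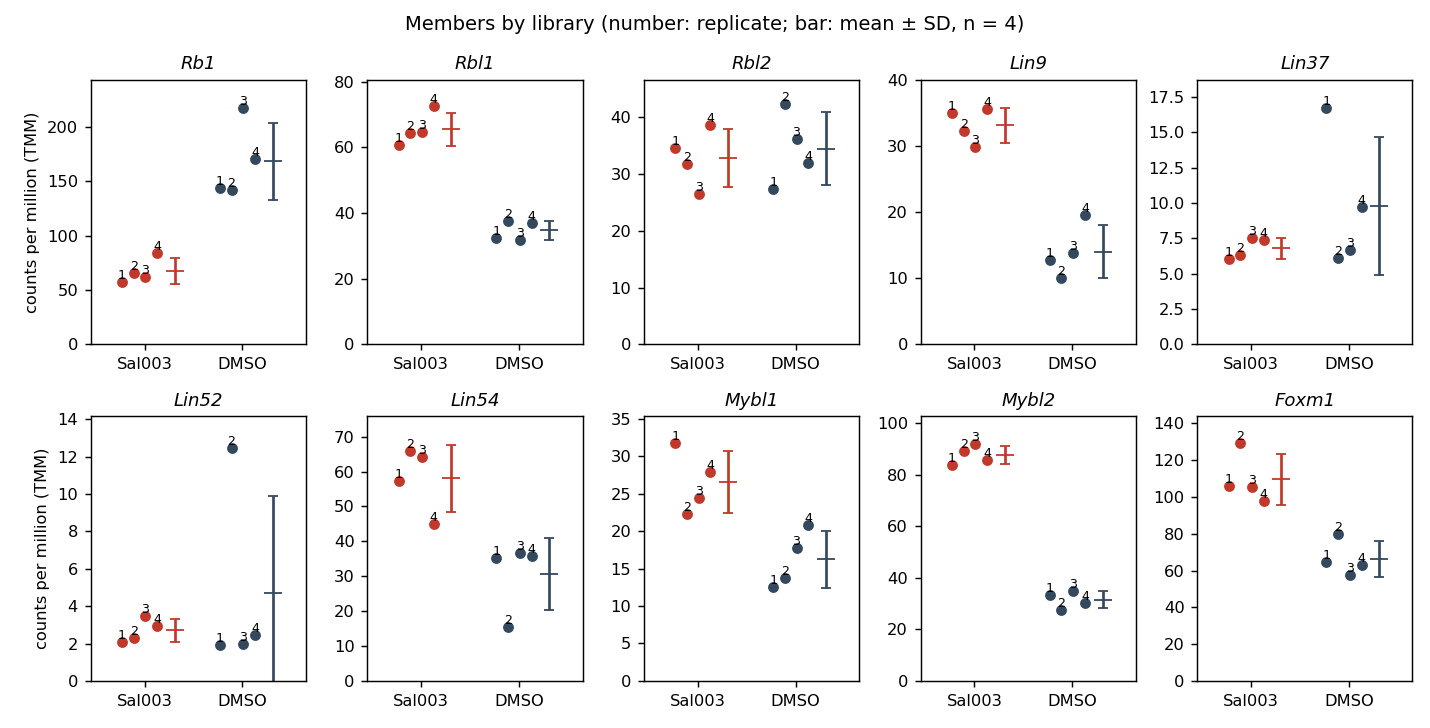
TMM-scaled CPM of each member (y axis, from 0, a scale of its own in each panel) in the 4 Sal003 libraries (red, left) and the 4 DMSO libraries (dark, right); numbers give the replicate and bars the mean ± SD (n = 4), with the lower bar of Lin52 in DMSO cut at 0. Mybl2, Lin9, Rbl1, Lin54, Foxm1 and Mybl1 lie higher in every Sal003 library than in any DMSO library, Rb1 lies lower, and DMSO replicate 2 lies far from the other DMSO libraries for Lin52 (12.5 CPM) and Lin54 (15.4 CPM).

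Among the pocket proteins, Rb1 fell and Rbl1 rose. Rb1 (ENSMUSG00000022105, chromosome 14, 73183673 to 73325822, minus strand of mm10) stood at 57.3, 65.2, 61.9 and 84.3 CPM in Sal003 replicates 1 to 4, against 144, 142, 217 and 171 CPM in DMSO replicates 1 to 4. Every Sal003 library lay below every DMSO library, and the highest Sal003 value was well under the lowest DMSO value. edgeR put the log2 fold change at -1.33 ± 0.15 (SE, adjusted p = 1.09e-05), and leaving out any 1 library gave values from -1.45 to -1.17. Rb1 shares 8.11% of its exon bases with Rcbtb2 and 6.78% with Lpar6, both on the opposite strand, and the strand setting of the counting is not given in the sources used here. Rcbtb2 stood at 54.1 ± 3.81 CPM in Sal003 and 56.96 ± 17.5 CPM in DMSO (SD, n = 4), and its change of -0.08 ± 0.17 on the log2 scale did not pass (adjusted p = 0.836 by edgeR).

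Rbl1, which encodes p107 and is itself switched on by E2F in cycling cells, had 60.6, 64.4, 64.6 and 72.6 CPM in Sal003, against 32.5, 37.5, 31.9 and 36.8 CPM in DMSO (ENSMUSG00000027641, chromosome 2, 157145893 to 157204534, minus strand). All 4 Sal003 values were above all DMSO values and the libraries of each group lay close together. The rise was 0.92 ± 0.12 on the log2 scale (SE), with an edgeR adjusted p of 3.92e-05. Rbl2, which encodes p130, the pocket protein that prevails in resting and differentiated cells, had 34.6, 31.8, 26.5 and 38.7 CPM in Sal003, against 27.4, 42.4, 36.2 and 32.0 CPM in DMSO (ENSMUSG00000031666, chromosome 8, 91070057 to 91123844, plus strand). The groups overlapped almost wholly. The estimate of -0.07 ± 0.17 on the log2 scale did not pass (edgeR adjusted p = 0.848) and had an approximate 95% interval of -0.40 to 0.26, and it changed sign without DMSO replicate 2 (0.06 ± 0.16). Aktip, which shares 9.17% of the exon bases of Rbl2 on the opposite strand, fell, with a log2 value of -0.64 ± 0.18 (adjusted p = 0.0188 by edgeR).

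The pocket protein transcripts therefore differed in their proportions. Per length of exon sequence, as FPKM (CPM per kilobase of the merged exons), Rb1 made up 39.3% to 44.9% of the summed pocket protein FPKM in Sal003 and 66.5% to 78.1% in DMSO. The share of Rbl1 was 41.5% ± 2.09 in Sal003 and 15.4% ± 2.68 in DMSO (SD, n = 4). The share of Rbl2 was 16.5% ± 1.88 in Sal003 and 12.03% ± 2.55 in DMSO. Its groups overlapped, with 14.3% to 18.9% in Sal003 and 10.4% to 15.8% in DMSO. The log2 ratio of Rbl1 to Rb1 counts averaged -0.02 ± 0.14 in Sal003 and -2.26 ± 0.36 in DMSO (SD, n = 4), a difference of 2.24. By library this ratio ran from -0.22 to 0.08 in Sal003 and from -2.77 to -1.92 in DMSO, without overlap. The log2 ratio of Rbl1 to Rbl2 averaged 1.004 ± 0.20 in Sal003 and 0.02 ± 0.23 in DMSO, a difference of 0.98. For each of these ratios the two-sided exact permutation p was 0.0286, the smallest that 4 against 4 libraries allow, and 0.0429 after adjustment over the 3 ratios compared.

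**Figure D2:**
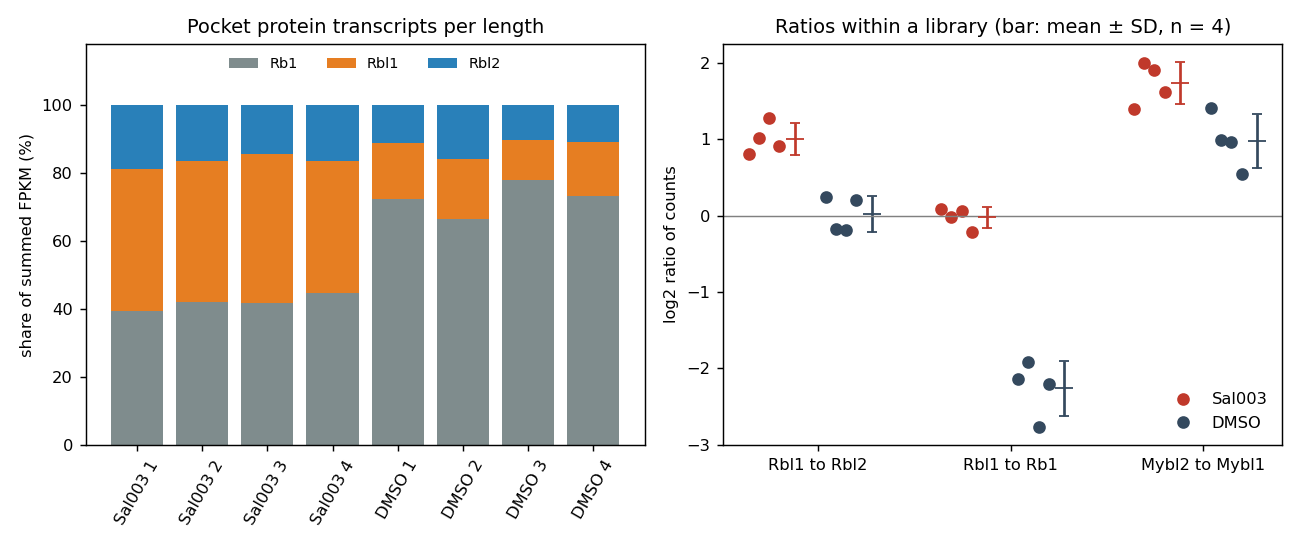
Left, share of the summed FPKM of Rb1, Rbl1 and Rbl2 (y axis, percent) in each library, Sal003 left of DMSO; right, log2 ratio of counts within each library for 3 pairs of members, Sal003 (red) left of DMSO (dark), with bars for the mean ± SD (n = 4). The Rbl1 share averages 41.5% in Sal003 and 15.4% in DMSO, and the ratios of Rbl1 to Rbl2 and to Rb1 do not overlap between the groups, while those of Mybl2 to Mybl1 touch.

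Of the MuvB subunits, Lin9 and Lin54 rose, and Lin37 and Lin52 did not pass. Lin9, a scaffold subunit through which the core holds B-MYB, had 35.0, 32.3, 29.9 and 35.6 CPM in Sal003, against 12.7, 10.1, 13.8 and 19.5 CPM in DMSO (ENSMUSG00000058729, chromosome 1, 180641150 to 180690694, plus strand). All Sal003 libraries were above all DMSO libraries, and the DMSO values were the more scattered, with a coefficient of variation of 28.4% against 7.94% in Sal003. Lin9 rose by 1.24 ± 0.20 in log2 units (SE), at an edgeR adjusted p of 0.000256.

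Lin54, the subunit that contacts the cell cycle homology region in DNA, had 57.2, 65.8, 64.3 and 44.9 CPM in Sal003, against 35.1, 15.4, 36.7 and 35.8 CPM in DMSO (ENSMUSG00000035310, chromosome 5, 100441918 to 100500639, minus strand). Sal003 replicate 4 was the lowest of its group and DMSO replicate 2 far below the other DMSO libraries, yet the groups did not overlap. With all libraries edgeR gave a log2 fold change of 0.92 ± 0.24 (adjusted p = 0.0128), and 0.71 ± 0.14 (adjusted p = 0.00041) without DMSO replicate 2.

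Lin37, a subunit that DREAM needs for repression, was low in CPM, with 6.03, 6.31, 7.50 and 7.36 CPM in Sal003, against 16.7, 6.11, 6.64 and 9.73 CPM in DMSO (ENSMUSG00000036845, chromosome 7, 30555441 to 30559838, minus strand). DMSO replicate 1 was the highest library, and DMSO replicates 2 and 3 lay within the Sal003 range. The estimate of -0.53 ± 0.33 on the log2 scale (approximate 95% interval -1.18 to 0.12; edgeR adjusted p = 0.318) was -0.13 without DMSO replicate 1 and -0.69 ± 0.29 without DMSO replicate 2 (adjusted p = 0.0929). Lin52, the small subunit that bridges the core to p107 or p130 after phosphorylation by DYRK1A in human cells, had 2.11, 2.302, 3.48 and 2.93 CPM in Sal003, against 1.92, 12.5, 1.998 and 2.45 CPM in DMSO (ENSMUSG00000085793, chromosome 12, 84451422 to 84546145, plus strand). These are 86 to 139 counts per Sal003 library, and 60, 420, 68 and 93 counts in DMSO. DMSO replicate 2 alone was high, and the other 3 DMSO libraries overlapped Sal003. On the log2 scale the estimate was -0.80 ± 0.62 with all libraries (approximate 95% interval -2.01 to 0.42; edgeR adjusted p = 0.438) and 0.36 ± 0.52 (adjusted p = 0.696) without that library, so no direction is given for Lin52.

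The fifth subunit of the core, Rbbp4, a histone-binding protein shared with other chromatin complexes, was by far more abundant, at 47.1 FPKM in Sal003 and 56.7 FPKM in DMSO. In CPM it stood at 412 ± 13.8 in Sal003 and 496 ± 76.6 in DMSO (SD, n = 4). The difference of -0.27 ± 0.10 on the log2 scale did not pass (adjusted p = 0.0653 by edgeR), although the groups did not overlap, and it was -0.14 without DMSO replicate 2.

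**Figure D3:**
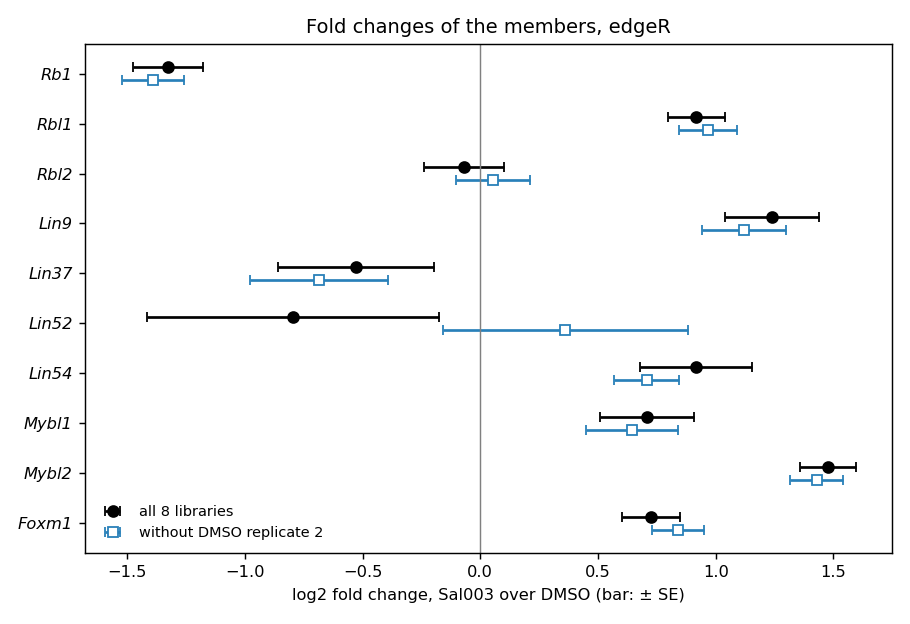
Log2 fold change of each member, Sal003 over DMSO (x axis; bars ± SE, edgeR), from all 8 libraries (black circles) and without DMSO replicate 2 (open blue squares). Mybl2 lies at 1.48 and Rb1 at -1.33 with all libraries; Lin52 moves across 0, to 0.36, when DMSO replicate 2 is left out.

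Mybl2, which encodes B-MYB, the partner that MuvB takes up in S phase, had the largest rise of the members. It stood at 83.9, 89.2, 91.8 and 85.9 CPM in Sal003, against 33.5, 27.4, 34.8 and 30.3 CPM in DMSO (ENSMUSG00000017861, chromosome 2, 163054687 to 163084688, plus strand). The groups lay far apart, with a coefficient of variation of 4.03% in Sal003 and 10.6% in DMSO. Mybl2 rose by 1.48 ± 0.12 on the log2 scale (SE) at an edgeR adjusted p of 1.8e-07, and 390 of the 15816 tested genes (2.47%) had a larger one.

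Mybl1 encodes A-MYB, a relative best known as a regulator of meiosis in the male germ line. It had 31.7, 22.2, 24.4 and 27.8 CPM in Sal003, against 12.6, 13.8, 17.8 and 20.8 CPM in DMSO (ENSMUSG00000025912, chromosome 1, 9667415 to 9700209, minus strand). The lowest Sal003 library was only just above the highest DMSO library. The rise of 0.71 ± 0.20 on the log2 scale passed (adjusted p = 0.0174 by edgeR), and the call was lost without Sal003 replicate 1 (0.61, adjusted p = 0.0761) and without DMSO replicate 1 (0.61, adjusted p = 0.0531). The log2 ratio of Mybl2 to Mybl1 counts averaged 1.74 ± 0.27 in Sal003 and 0.98 ± 0.36 in DMSO (SD, n = 4). The difference of 0.76 did not pass (two-sided exact permutation p = 0.0571), and Sal003 replicate 1 lay just below DMSO replicate 1. With 1 library left out at a time the difference ran from 0.61 to 0.90, with exact permutation p from 0.0571 to 0.0857 in 7 of the 8 cases and 0.0286 without DMSO replicate 1, the library at the overlap. Myb, the third gene of the family and no member here, was lower still at 12.01 ± 1.77 CPM in Sal003 and 6.26 ± 1.59 CPM in DMSO. Its rise of 0.94 ± 0.27 in log2 units passed (edgeR adjusted p = 0.0201), a call lost without Sal003 replicate 1 (adjusted p = 0.0666), Sal003 replicate 2 (0.0699) or DMSO replicate 1 (0.0542).

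Foxm1, the forkhead factor that joins B-MYB and MuvB on genes of mitosis, had 106, 129, 106 and 97.7 CPM in Sal003, against 64.7, 79.9, 57.7 and 62.8 CPM in DMSO (ENSMUSG00000001517, chromosome 6, 128362967 to 128376146, plus strand). Replicate 2 was the highest library in each group, and the groups did not overlap. The rise on the log2 scale was 0.73 ± 0.12 (SE) with all libraries (edgeR adjusted p = 0.000414) and 0.84 ± 0.11 without DMSO replicate 2. Foxm1 shares 2.5% of its exon bases with Tex52 on the same strand. When the test asked for more than a 1.5-fold change, Mybl2, Lin9 and Rbl1 still passed among the members that rose, and Foxm1 (edgeR adjusted p = 0.384), Lin54 (0.284) and Mybl1 (0.665) did not.

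Per length, the members were ordered as follows. In Sal003, Foxm1 (19.1 ± 2.39 FPKM) and Mybl2 (18.9 ± 0.763 FPKM) were the most abundant, overlapped each other and lay above all other members. Rb1 (11.2 FPKM), Rbl1 (10.9 FPKM) and Lin54 (9.97 FPKM) followed without differing beyond their spread. Mybl1 (4.91 FPKM), Lin37 (4.90 FPKM), Lin9 (4.58 FPKM) and Rbl2 (4.35 FPKM) formed a lower group whose neighbours overlapped, and Lin52 was the lowest at 0.871 FPKM. In DMSO, Rb1 led with 28.004 ± 5.85 FPKM (SD, n = 4), above every other member in every library. Foxm1 (11.5 FPKM), Lin37 (7.07 FPKM), Mybl2 (6.80 FPKM), Rbl1 (5.79 FPKM), Lin54 (5.28 FPKM), Rbl2 (4.57 FPKM), Mybl1 (3.01 FPKM), Lin9 (1.94 FPKM) and Lin52 (1.51 FPKM) came next, and the ranges of neighbours in this order overlapped throughout. For Lin52 this overlap with Lin9 came from DMSO replicate 2 alone, at 4.005 FPKM, and without that library the DMSO mean of Lin52 was 2.12 CPM, against 4.70 CPM with it. The DMSO mean of Lin37, and so its place, was raised by DMSO replicate 1, at 12.1 FPKM. Its lowest DMSO library, replicate 2, stood at 4.40 FPKM. Compared within each library, Rbl2 lay above Mybl1, and Mybl1 above Lin9, in all 4 DMSO libraries. The other steps below Rb1 in the DMSO order held in 1 to 3 libraries. Exon lengths are those of the GENCODE M21 annotation, which may not be the one the authors counted on.

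Over the 8 libraries, the genes with the most similar pattern were sought among 7329 candidates by the Pearson correlation of log2 CPM, which mostly follows the difference between the groups. For Mybl2 they were the histone gene Hist1h3d (0.995), Uhrf1 (0.995), which helps copy DNA methylation, and Tagln2 (0.994), and 635 candidates exceeded 0.9. For Rbl1 they were H2afy (0.996), which encodes a macroH2A histone, the ribosome assembly factor Utp20 (0.992) and the linker histone Hist1h1b (0.991). For Foxm1 they were the importin Ipo9 (0.988), the nucleoporin Nup85 (0.985) and the receptor Nrp2 (0.978). For Rb1 they were the transcription factor Zeb1 (0.998), Nav3 (0.991) and the kinase Stk17b (0.989), all lower in Sal003. For Mybl1 they were the splicing factor Prpf8 (0.984), Spata5 (0.981) and Zbtb10 (0.970). Rbl2, whose groups overlapped, had 5 candidates above 0.9, led by the tryptophanyl-tRNA synthetase Wars (0.955), Fbxo33 (0.952) and the ribosomal protein pseudogene Rpl9-ps6 (0.918).

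The E2F and DP families supply the DNA-binding partners of the pocket proteins. Rbbp4 was counted among 11 such genes. Of these, 5 rose, 0 fell and 6 did not pass, while edgeR called 10.6% of all tested genes higher and 12.2% lower. The median log2 fold change of the 11 genes was 0.48. Partners of pRB were among those that rose: the activators E2f1 (31.5 ± 2.17 CPM in Sal003, 16.2 ± 2.04 CPM in DMSO; log2 fold change 0.96 ± 0.16) and E2f3 (0.57 ± 0.11). The atypical repressor E2f7, which binds no pocket protein, rose by 1.03 ± 0.15 and the dimer partner Tfdp1 by 0.69 ± 0.10 (edgeR adjusted p at most 0.00109 for these 4). E2f8, the other atypical E2F, stood at 193 ± 4.07 CPM in Sal003 and 179 ± 7.42 CPM in DMSO. It did not pass (0.10 ± 0.08, edgeR adjusted p = 0.441). The E2Fs of DREAM did not pass: E2f4 stood at 115 ± 7.53 CPM in Sal003 and 131 ± 18.9 CPM in DMSO (-0.19 ± 0.11, edgeR adjusted p = 0.273), and E2f5 at 5.51 ± 2.31 CPM in Sal003 and 3.55 ± 1.76 CPM in DMSO (0.64 ± 0.47, adjusted p = 0.406). Tfdp2, the other dimer partner, did not pass (-0.32 ± 0.13, adjusted p = 0.0993).

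Of 23 genes known to act on the pocket proteins, MuvB, B-MYB or FOXM1, 9 rose, 6 fell and 8 did not pass (median log2 fold change 0.33). The shares of all tested genes that edgeR called were 10.6% higher and 12.2% lower. Among kinases that phosphorylate the pocket proteins and their cyclins, Ccnd1 stood at 302 ± 17.6 CPM in Sal003 and 177 ± 11.9 CPM in DMSO (0.77 ± 0.09), Cdk4 rose by 0.61 ± 0.10 and Cdk6 by 1.14 ± 0.16, while Ccnd2 did not pass (0.78 ± 0.45, edgeR adjusted p = 0.265). Ccnd3, which encodes a D cyclin of differentiating muscle, fell (-0.36 ± 0.10, adjusted p = 0.0138), a call lost without Sal003 replicate 1 (adjusted p = 0.0628) or Sal003 replicate 3 (0.0531). Cyclin A2 (Ccna2, 1.02 ± 0.09) and Cdk1 (1.03 ± 0.10), which phosphorylate B-MYB and FOXM1, rose, as did the kinase Plk1 (0.93 ± 0.11) and Ccnf, whose product binds B-MYB (0.57 ± 0.12). Of the cyclin-dependent kinase inhibitors, Cdkn1a and Cdkn1c fell. Cdkn1a, which encodes p21, stood at 122 ± 15.7 CPM in Sal003 and 439 ± 31.7 CPM in DMSO (-1.85 ± 0.10). Cdkn1c stood at 5.01 ± 0.844 CPM in Sal003 and 38.7 ± 10.6 CPM in DMSO (-2.95 ± 0.24). The inhibitors Cdkn1b, Cdkn2a, Cdkn2b, Cdkn2c and Cdkn2d did not pass (-0.05 for Cdkn1b to 0.37 for Cdkn2a, edgeR adjusted p at least 0.567). Dyrk1a, the kinase that promotes DREAM assembly, stood at 200.5 ± 18.98 CPM in Sal003 and 273 ± 12.1 CPM in DMSO (-0.45 ± 0.09, edgeR adjusted p = 0.00148). Its relative Dyrk1b stood at 7.71 ± 2.79 CPM in Sal003 and 21.97 ± 8.77 CPM in DMSO (-1.51 ± 0.30, adjusted p = 0.00168).

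**Figure D4:**
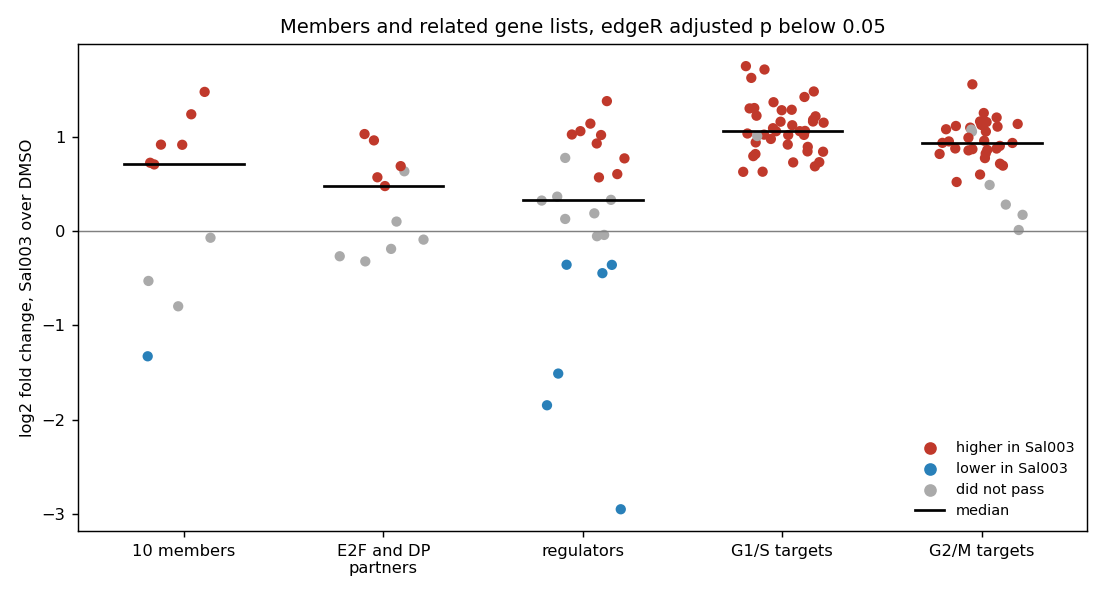
Log2 fold change, Sal003 over DMSO (y axis), of each member and of each gene of 4 related lists; red points are higher and blue points lower in Sal003 at edgeR adjusted p below 0.05, grey points did not pass, and black lines are medians. The medians are 0.72 for the members, 0.48 for the E2F and DP partners, 0.33 for the regulators, 1.06 for the G1/S targets and 0.94 for the G2/M targets.

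Genes that DREAM and E2F silence at G1/S and that B-MYB and FOXM1 activate at G2/M were read from the same fit, as lists chosen with earlier results of these data known. Over all tested genes edgeR called 10.6% higher and 12.2% lower, and the median log2 fold change was -0.0034. Of 39 G1/S targets 38 rose, 0 fell and Ung did not pass, with a median log2 fold change of 1.06. Hells, a chromatin remodeller, stood at 153 ± 10.8 CPM in Sal003 and 46.6 ± 9.18 CPM in DMSO (SD, n = 4; 1.71 ± 0.13), and the helicase subunit Mcm6 (1.16 ± 0.09), Uhrf1 (1.29 ± 0.09) and Atad2 (1.28 ± 0.09) rose as well. Of 36 G2/M targets 30 rose, 0 fell and 6 did not pass (Ube2c, Cenpa, Ckap2, Ccnb2, Cks2 and Cdkn3), with a median of 0.94. Top2a, a topoisomerase, stood at 933 ± 8.71 CPM in Sal003 and 416 ± 62.4 CPM in DMSO (1.16 ± 0.10), and the checkpoint kinase Bub1b (1.10 ± 0.10), the centromere protein Cenpf (0.88 ± 0.09) and the spindle factor Tpx2 (0.82 ± 0.08) rose too. The rise of Mybl2 lay above the medians of both lists, and those of Foxm1 and Mybl1 lay below them; differences between members and lists were not tested.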

How the data were processed

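RNA was measured in 8 samples, 4 of sal003 and 4 of DMSO. Per the labels' protocols, libraries were stranded and made after depletion of ribosomal and mitochondrial RNA. The authors deposited whole-number counts per gene. Trimmomatic 0.32, STAR 2.3.0e, featureCounts 1.4.4 and mm10 are named, per the submitters' processing notes. The strand and multi-mapping setting is not given in the sources used here, which leaves genes that overlap uncertain. The labels disagree on the dose, and the 10 µM of the design text was used over the 10 mM of the treatment protocol. Of counts from 1 to 20, 75.6% to 83.4% per library were even, so halved counts were an alternative.

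In R 4.3.3, edgeR 4.0.16 was run on the deposited counts with filterByExpr (minimum count 10, total 15), TMM scaling, a robust quasi-likelihood test of condition without covariates, two-sided, and Benjamini-Hochberg adjustment over 15816 genes. The SE is the size of the log2 fold change over the square root of F, and approximate intervals come from it. Ratios of 2 members used counts plus 0.5. Coordinates and exon lengths come from GENCODE M21, which held 96.6% of the identifiers. The fit was tested on simulated counts. Replicates differed beyond counting noise (chi-square per degree of freedom at least 25.3), so none was merged.

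Members, lists and tests were chosen with earlier results of these data known. Named beside the members are up to 4 genes per list and direction past the threshold in order of p, 14 fixed genes (Myb, Rbbp4, E2f4, E2f5, Tfdp1, Tfdp2, Dyrk1a, Ccnd1, Ccnd2, Ccnd3, Cdk4, Cdk6, Cdkn1a and Ccnf) and the 3 most similar genes for 6 members. Neighbours that overlap a member, cell type markers, E2f8, and the kinase inhibitors and target genes that did not pass were named after their values were seen. Alternatives were scaling by upper quartile or DESeq2 size factors, no filter or one of 10 CPM, leaving out abundant genes, a replicate block, each library left out in turn, DESeq2 1.42.0, limma-voom (limma 3.58.1), an adjusted p of 0.01, a test against 1.5-fold, halved counts, protein-coding genes and, for the ratios, a prior count of 5.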

Additional observations from a re-analysis of the deposited data

Results flagged for a closer look

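In DMSO replicate 2, Lin52 stood at 12.5 CPM, against 1.92 to 2.45 CPM in the other 3 DMSO libraries and the gap passed the 95% critical value of Dixon's test for 4 samples. In the same library Lin54 stood at 15.4 CPM, against 35.1 to 36.7 CPM in the other DMSO libraries, and passed the same limit. The 10 members and 3 ratios gave 26 groups of 4 libraries, 2 of which were so marked, where chance marks about 1 in 20. DMSO replicate 2 was the highest DMSO library for 4 members and the lowest for 5, and it had counts for fewer genes than any other library (14437). The part of this library in the results of Lin52 and Lin54 is given by the values without it: 0.36 ± 0.52 for Lin52 and 0.71 ± 0.14 for Lin54 (log2 fold change, SE).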

How the results depend on the processing

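Of the 10 members, Rb1, Rbl1, Lin9 and Mybl2 kept their direction and call in all 20 alternatives, and Rbl2 and Lin37 stayed uncalled in each that gave a value, as did Lin52. Lin54 lost its call at an adjusted p of 0.01 and against a 1.5-fold change, Foxm1 against a 1.5-fold change, and Mybl1 in both and without Sal003 replicate 1 or DMSO replicate 1. The estimate of Rbl2 reversed without Sal003 replicate 3 (0.02) and without DMSO replicate 2 (0.06), and that of Lin52 reversed without DMSO replicate 2 (0.36) and with limma-voom (0.20). Without 1 library at a time Rbl2 ran from -0.15 to 0.056 and Lin52 from -1.05 to 0.36. Lin37 and Lin52 have no value under the filter of 10 CPM in 4 libraries. Members called higher numbered 5 or 6 in the fits without 1 library. Against a 1.5-fold change, 266 genes were higher and 737 lower; 3 members, 1 E2F and DP partner and 19 G2/M targets were higher, and 3 regulators were lower. At an adjusted p of 0.01, 984 genes were higher. With the 10 CPM filter, 2 E2F and DP partners were lower (Rbbp4 and Tfdp2), their median was 0.25 and that of the G2/M targets 0.88; Rbbp4 was the 1 partner lower with DESeq2 and the 1 with limma-voom, where the regulators' median was 0.43. The cause of these shifts was not tested. Without 1 library at a time, medians ran from 0.32 to 0.53 for the E2F and DP partners, 0.25 to 0.45 for the regulators and 0.90 to 0.95 for the G2/M targets, and the difference in the Mybl2 to Mybl1 ratio from 0.61 to 0.90.

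With the replicate number as a block, 1660 genes were higher and 1770 lower, with 6 members higher and 1 lower. Samples of the same number did not deviate together (correlations of -0.0053, 0.019, 0.035 and 0.0083 for numbers 1 to 4). Samples of unlike numbers gave -0.059 to 0.075. These values cannot tell whether a number marks a shared animal or preparation, since differences among single libraries could hide it. Within numbers, the ratio differences were 0.98 for Rbl1 to Rbl2 and 2.24 for Rbl1 to Rb1 (exact sign-flip permutation p = 0.125 each, the smallest that 4 pairs allow). Depth limits Lin52 most, at 60 to 139 counts in 7 libraries.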
